A study of Mus musculus with 24 samples.

Results

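The 8 genes described here encode proteins that hold back the growth kinase complex mTORC1 or the step of translation it controls. They are the sestrins Sesn1, Sesn2 and Sesn3, Ddit4 (which encodes REDD1) and its paralogue Ddit4l (REDD2), the 4E-binding proteins Eif4ebp1 and Eif4ebp2, and Deptor. They were taken by symbol from the 56748 genes of the deposited table, and all 8 symbols were found. RNA came from C2C12 cells, an immortalised line of mouse myoblasts, all of which carried a lentiviral vector that expresses uncoupling protein 1 (UCP1) when doxycycline is present. Water or doxycycline was given 24 h after seeding, the media were changed to the treatments 24 h later, and RNA was taken after 16 h. In the water arm, BSA cells received bovine serum albumin at 51 µM, OA cells received oleic acid at 300 µM, and OOA cells received oligomycin at 1 µM on top of that oleic acid. The same media with doxycycline gave Dox_BSA, Dox_OA and Dox_OOA, so that there were 6 groups of 4 libraries. The vector also sat in the cells given water, no group received doxycycline without it, and effects of doxycycline and of UCP1 therefore share every difference between the arms. The albumin content of the oleic acid media is not given, and the labels do not say that libraries came from separate cultures, so p-values measure the spread between these libraries, which may be technical.

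Active mTORC1 promotes protein synthesis, and the products of these genes act at several points of that pathway. Sestrins bind the GATOR2 complex when leucine is scarce, which frees GATOR1 to switch off the Rag GTPases that recruit mTORC1 to the lysosome. REDD1 lowers mTORC1 activity through the TSC complex, the inhibitor of the GTPase Rheb, and Deptor binds mTOR itself. The 4E-binding proteins grip the cap-binding factor eIF4E until mTORC1 phosphorylates them. Sesn2, Ddit4 and Eif4ebp1 are known targets of ATF4, the transcription factor of the integrated stress response, and sestrin genes are also known targets of p53 and FOXO factors. Oligomycin blocks mitochondrial ATP synthase, and UCP1 lets protons return to the matrix without it.

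Libraries held 20370651 to 29410667 reads. Ucp1 averaged 4.42 to 6.84 FPKM (fragments scaled to annotated gene length and to library size) over the 3 groups given water and 214.9 to 336.5 FPKM over the 3 given doxycycline. Of 8 myoblast markers 7 reached 1 FPKM, with Myf6 below it. The 5 adipocyte markers were at 0 in all libraries, and the 4 endothelial markers summed to at most 0.135 FPKM. Of 5 macrophage markers Cd68 and Lyz2 reached 1 FPKM in some libraries and Adgre1 was at 0, with sums between 1.84 and 4.17 FPKM. Replicates of a group differed by more than counting noise, and none was counted as a duplicate. With bulk RNA, fewer cells of a kind and less RNA per cell cannot be told apart.

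The promoters of the members that responded most, and in opposite directions, show what sequence lies upstream of them. The RefSeq table of promoters (GRCm38.p6, 250 bases before to 50 after the start) held 6 of the members and 7 promoters, since Sesn1 has 2 entries. Eif4ebp1 and Deptor were not among them. Sesn2 (chr4:132510407-132510706, minus strand) and Ddit4 (chr10:59951721-59952020, minus strand) rose most under oligomycin in the water arm, and Eif4ebp2 (chr10:61452620-61452919, minus strand) fell. Each is printed 5′ to 3′ on the gene's strand. Capitals mark CCAAT or its reverse complement and ACGTG or its reverse complement.
Sesn2: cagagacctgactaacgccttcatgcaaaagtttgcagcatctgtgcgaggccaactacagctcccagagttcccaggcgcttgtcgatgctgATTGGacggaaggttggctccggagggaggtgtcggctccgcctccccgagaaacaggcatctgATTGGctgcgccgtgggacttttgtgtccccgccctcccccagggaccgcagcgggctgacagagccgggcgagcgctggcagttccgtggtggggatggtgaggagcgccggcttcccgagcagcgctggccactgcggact
Ddit4: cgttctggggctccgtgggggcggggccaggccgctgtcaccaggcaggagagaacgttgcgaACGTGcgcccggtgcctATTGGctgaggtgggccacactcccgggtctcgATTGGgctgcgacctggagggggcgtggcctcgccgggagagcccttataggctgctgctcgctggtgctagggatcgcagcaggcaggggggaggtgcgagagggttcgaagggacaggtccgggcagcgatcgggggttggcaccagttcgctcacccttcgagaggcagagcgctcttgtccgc
Eif4ebp2: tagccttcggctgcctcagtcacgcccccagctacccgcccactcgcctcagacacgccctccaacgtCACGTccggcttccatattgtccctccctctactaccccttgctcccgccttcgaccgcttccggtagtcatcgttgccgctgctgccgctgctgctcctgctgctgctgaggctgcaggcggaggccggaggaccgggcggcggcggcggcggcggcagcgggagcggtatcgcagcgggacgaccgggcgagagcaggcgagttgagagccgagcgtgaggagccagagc
Counted in bases from the start, with minus for upstream, Sesn2 had CCAAT at -157 and -93 and Ddit4 at -170 and -137, all on the opposite strand. Ddit4 also had ACGTG, the core of hypoxia response elements, at -187, and Eif4ebp2 had it at -182 on the opposite strand. CCAAT was found in 5 of the 7 member promoters, Sesn3 with 4 copies and both Sesn1 promoters included, and not in those of Eif4ebp2 and Ddit4l. Over all 32851 promoters, 37.4% held CCAAT and 19.6% held ACGTG on either strand. The element TGATGNAA, which ATF4 binds with C/EBP partners, was in 0 of the 7 and in 3.97% of all promoters. The FOXO element GTAAACA was in 1 of the 7, a Sesn1 promoter, and in 3.65% of all. CCAAT was added to the search after these sequences had been read. No motif overlapped another, and a match here describes letters in the window and not binding.

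Per annotated gene length, the most abundant member in cells given BSA was Deptor at 33.1 ± 1.38 FPKM (SD, n = 4), followed by Eif4ebp1 at 29.6 ± 3.95 and Eif4ebp2 at 27.2 ± 0.45. Ddit4 averaged 15.1 ± 2.72 FPKM, Sesn1 14.6 ± 1.09 and Sesn3 10.8 ± 0.80. Sesn3 had more reads than Sesn1 in BSA (3532 to 4176 against 1252 to 1369) but also a longer annotated length. Sesn2 was low at 5.02 ± 0.53 FPKM, and Ddit4l was barely detected at 0.790 ± 0.15 FPKM. The order of these means was the same in Dox_BSA and Dox_OA, and in OA Eif4ebp1 stood above Deptor. In both oligomycin media Sesn2 stood above Sesn1 and Sesn3, and over all libraries it ranged from 4.26 to 51.9 FPKM.

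**Figure D1:**
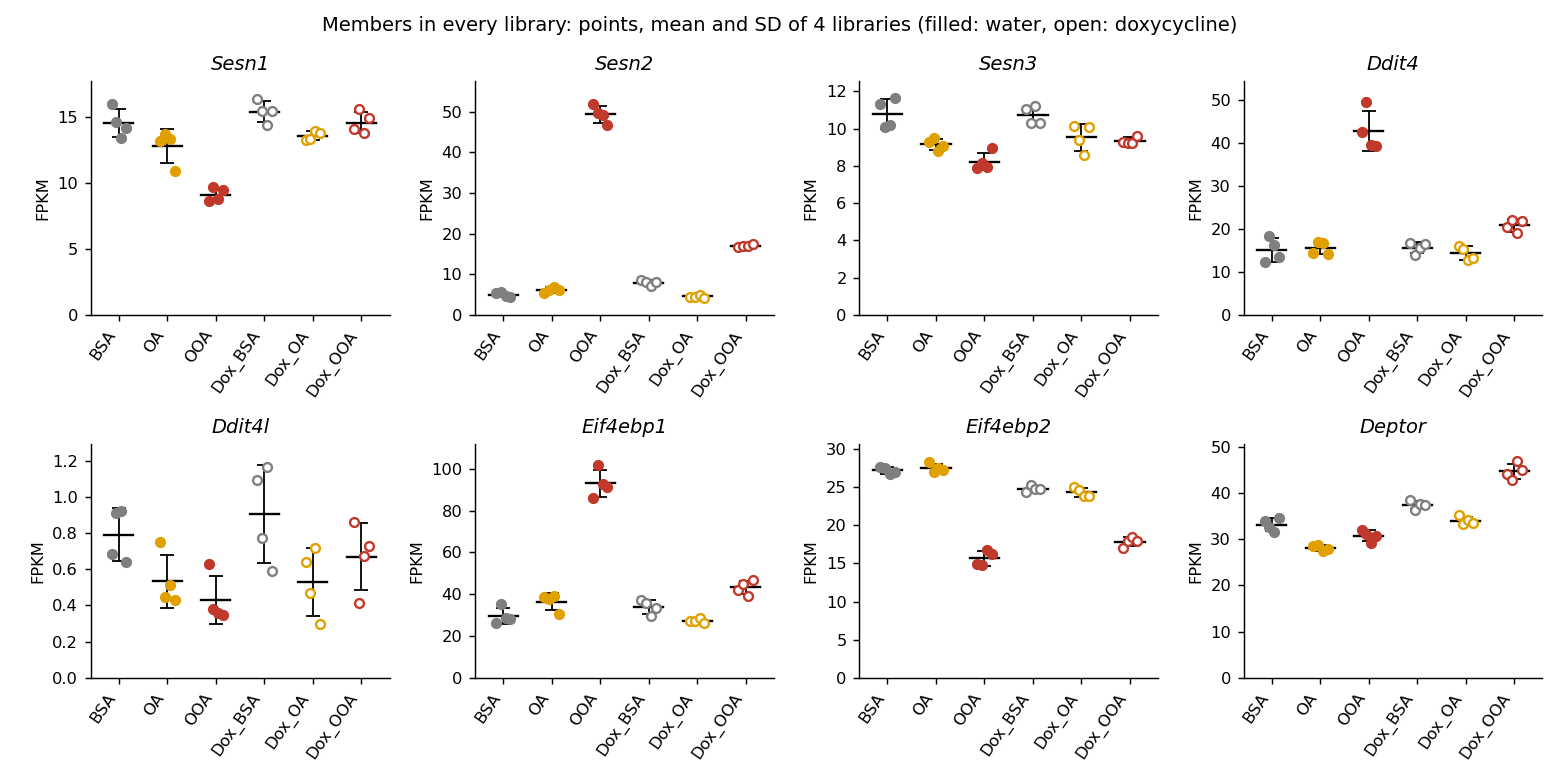
Level of each of the 8 genes (vertical axis, FPKM, starting at 0, its own scale in each panel) in each of the 6 groups, with 1 point per library and the mean and SD of 4 libraries. In OOA, Sesn2, Ddit4 and Eif4ebp1 stand above all other groups while Sesn1 and Eif4ebp2 stand below them, and Dox_OOA lies between for Sesn2, Ddit4, Eif4ebp1 and Eif4ebp2.

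Adding oligomycin to oleic acid in the water arm changed all 7 members that entered the test across genes, in both directions. Changes are differences in log2(FPKM + 1), which understate the change of low genes, tested with limma over 12904 genes at an adjusted p of 0.05. Sesn2, Ddit4, Eif4ebp1 and Deptor rose, and Sesn1, Sesn3 and Eif4ebp2 fell. The share of all genes called in OOA against OA was 56.9%, with 28.5% higher and 28.4% lower, so a call alone says little in this comparison. The median change of the 7 members was 0.12 and that of all genes 0.01. The size of the change separates the members better. Only 0.170% of genes changed more than Sesn2 in either direction, 2.63% more than Ddit4 and 2.87% more than Eif4ebp1, whereas 73.8% changed more than Deptor.

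Sesn2 (ENSMUSG00000028893, GRCm39 chr4:132219343-132237812, minus strand), the sestrin known as a leucine sensor, gave the largest response of the members. It was at 5.33, 6.19, 7.02 and 6.22 FPKM in the 4 OA libraries and at 51.9, 49.6, 49.1 and 46.8 FPKM in OOA. Every OOA library lay several-fold above every OA library. The means differed by a factor of 7.97, and the log2 change was 2.81 ± 0.07 (SE, adjusted p = 1.65e-19). Gm12981, an unnamed gene that overlaps Sesn2 on the same strand, averaged 0.512 FPKM over all libraries, and reads shared with it could not be separated here.

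Sesn1 (ENSMUSG00000038332, chr10:41685931-41784420, plus strand) moved the other way. Its level was 13.2, 13.7, 13.4 and 10.9 FPKM in OA and 8.63, 9.67, 8.80 and 9.44 FPKM in OOA. The groups did not overlap, although OA replicate 4 came close to the OOA range. The log2 change was -0.44 ± 0.06 (adjusted p = 2.07e-06). Sesn3 (ENSMUSG00000032009, chr9:14186363-14244397, plus strand) ranged from 8.78 to 9.48 FPKM in OA and from 7.91 to 8.93 FPKM in OOA, and these ranges overlapped. Its log2 change of -0.14 ± 0.05 (adjusted p = 0.0312) is the weakest call of the comparison. It was lost when OA replicate 1 or 2 or OOA replicate 1, 2 or 3 was left out, with adjusted p between 0.0607 and 0.0832, and without a filter on low values (0.0623).

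Ddit4 (ENSMUSG00000020108, chr10:59785491-59787656, minus strand) encodes REDD1, a stress-induced protein. Its level in OA was 14.6, 17.1, 16.7 and 14.3 FPKM, and in OOA 42.7, 49.6, 39.7 and 39.5 FPKM. No OA library reached the OOA range, and the means differed by a factor of 2.74 (log2 change 1.40 ± 0.10, adjusted p = 5.23e-11). Its paralogue Ddit4l (ENSMUSG00000046818, chr3:137327373-137334094, plus strand), which is known from muscle, had only 21 to 91 reads per library and did not pass the filter on low values. It ranged from 0.429 to 0.748 FPKM in OA and from 0.349 to 0.630 FPKM in OOA. The exact permutation test gave p = 0.371, where 0.0286 is the smallest p that 4 against 4 libraries allow. Across the 7 differences between groups the lowest p for Ddit4l was 0.0571, in Dox_OOA against OOA, and the lowest adjusted value was 0.2. With a smallest p of 0.0286 over 7 comparisons a lone difference could not go below 0.2, so this test could not pass for one.

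The 4E-binding protein genes split. Eif4ebp1 (ENSMUSG00000031490, chr8:27750357-27766702, plus strand) was at 38.6, 37.6, 39.1 and 30.5 FPKM in OA and at 86.1, 102, 92.9 and 91.3 FPKM in OOA, and no OA library came near the OOA range. The ratio of means was 2.55 and the log2 change 1.33 ± 0.09 (adjusted p = 7.97e-12). Eif4ebp2 (ENSMUSG00000020091, chr10:61264270-61288440, minus strand), its close paralogue, was at 28.3, 27.0, 27.4 and 27.2 FPKM in OA and at 14.9, 14.8, 16.8 and 16.3 FPKM in OOA. Its libraries were also fully apart, in the other direction. The OOA mean was 0.571 of the OA mean, a log2 change of -0.77 ± 0.04 (adjusted p = 2.03e-14). Eif4ebp2 lies 1476614 bases from Ddit4 on chromosome 10, and they changed in opposite directions. The third paralogue, Eif4ebp3, reached at most 1.27 FPKM in any library and was not tested.

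Deptor (ENSMUSG00000022419, chr15:54975713-55122667, plus strand) changed little. It was at 28.5, 28.8, 27.4 and 27.9 FPKM in OA and at 32.1, 31.1, 29.2 and 30.6 FPKM in OOA. All OOA libraries lay above all OA libraries, but by a few FPKM only. The log2 change was 0.12 ± 0.04 (adjusted p = 0.00512). Gm9920, which overlaps Deptor on the opposite strand, averaged 0.121 FPKM, and no source used here states whether reads were counted by strand.

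Differentiation markers also differed among the groups. Among the myotube markers Acta1 alone ranged from 20.2 to 97.1 FPKM over all libraries. The 8 myotube markers, of which 6 reached 1 FPKM and Myh1 and Ckm did not, summed to 72.0 to 113 FPKM in OA and 33.6 to 43.2 FPKM in OOA. In BSA they summed to 121 to 156 FPKM, in Dox_BSA to 80.3 to 93.7, in Dox_OA to 60.8 to 73.7 and in Dox_OOA to 50.8 to 71.0 FPKM. The 8 myoblast markers summed to 176 to 195 FPKM in BSA, 148 to 150 in OA and 134 to 138 in OOA, and with doxycycline to 187 to 196, 157 to 167 and 163 to 175 FPKM in the same order of media. The part of differentiation state in the changes of the members was not tested.

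With doxycycline the response to oligomycin had the same direction for Sesn2, Ddit4, Eif4ebp1, Eif4ebp2 and Deptor, but its size differed. In Dox_OOA against Dox_OA, 4 of the 7 members rose and 1 fell, where 33.2% of all genes were called, 16.2% higher and 17.0% lower. Sesn2 was at 4.53, 4.57, 5.04 and 4.26 FPKM in Dox_OA and at 16.8, 17.0, 17.0 and 17.5 FPKM in Dox_OOA, a log2 change of 1.69 ± 0.07 (adjusted p = 1.25e-14). The libraries of both groups were tight and far apart. Ddit4 went from 16.1, 15.5, 12.9 and 13.4 FPKM to 20.5, 22.2, 19.0 and 21.9 FPKM (0.50 ± 0.10, adjusted p = 0.000483). Eif4ebp1 went from 27.3, 27.0, 28.7 and 26.1 FPKM to 42.2, 44.9, 39.2 and 46.7 FPKM (0.64 ± 0.09, adjusted p = 4.43e-06). Neither gene's groups overlapped. Eif4ebp2 fell from 25.0, 24.7, 23.8 and 23.9 FPKM to 17.0, 17.9, 18.4 and 18.0 FPKM (-0.43 ± 0.04, adjusted p = 4.27e-09), and again the groups were apart.

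Deptor was the member whose oligomycin response was larger with doxycycline. Its level rose from 35.1, 33.2, 34.1 and 33.5 FPKM in Dox_OA to 44.1, 42.8, 46.8 and 44.9 FPKM in Dox_OOA, by 0.38 ± 0.04 on the log2 scale (adjusted p = 2.12e-08). Dox_OOA libraries held more Deptor than any library of the other 5 groups. Sesn1 and Sesn3 did not pass in this arm, with log2 differences of 0.10 ± 0.06 (adjusted p = 0.257) and -0.02 ± 0.05 (adjusted p = 0.776).

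The difference between the arms was itself tested as an interaction, the response in doxycycline minus that in water. It passed for 6 of the 7 members, 3 with a positive and 3 with a negative difference, where 29.7% of all genes passed, 15.1% positive and 14.6% negative. Sesn2 differed by -1.12 ± 0.10 (adjusted p = 5.02e-09), Ddit4 by -0.89 ± 0.14 (adjusted p = 4.11e-05) and Eif4ebp1 by -0.69 ± 0.12 (adjusted p = 0.000137). On the log2 scale the doxycycline arm kept 60.2% of the water-arm change of Sesn2, 48.3% of that of Eif4ebp1 and 36.1% of that of Ddit4. The fall of Eif4ebp2 was 55.6% as large, a difference of 0.34 ± 0.05 (adjusted p = 1.78e-05). For Sesn1, called lower in the water arm and not called in the doxycycline arm, the difference was 0.54 ± 0.09 (adjusted p = 5.07e-05), and for Deptor it was 0.26 ± 0.05 (adjusted p = 0.000366). Sesn3 did not pass, with a difference of 0.11 ± 0.08 (adjusted p = 0.281). Ucp1 itself was at 0.668 of its Dox_OA level in Dox_OOA.

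**Figure D2:**
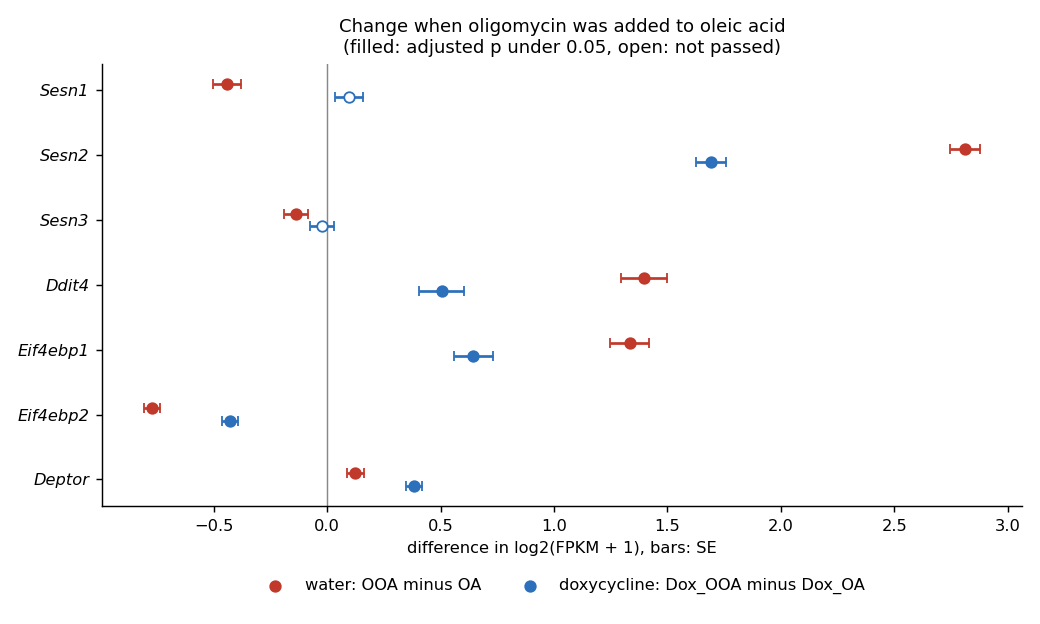
Change of the 7 tested genes when oligomycin was added to oleic acid, in the water arm (OOA minus OA, red) and in the doxycycline arm (Dox_OOA minus Dox_OA, blue). The horizontal axis is the difference in log2(FPKM + 1), bars are standard errors, and filled points passed an adjusted p of 0.05. Sesn2 lies at 2.81 with water and 1.69 with doxycycline, and Deptor is the gene whose rise is larger in blue.

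Doxycycline raised Sesn2 in BSA and lowered it in both oleic acid media. In BSA it rose from 5.33, 5.59, 4.66 and 4.48 FPKM to 8.58, 8.13, 7.17 and 8.12 FPKM in Dox_BSA, a log2 change of 0.58 ± 0.07 (adjusted p = 7.75e-06). All Dox_BSA libraries exceeded all BSA libraries. In oleic acid it fell by 0.36 ± 0.07 (adjusted p = 0.00125), and with oligomycin it fell by 1.48 ± 0.07 (adjusted p = 4.28e-14), to 0.346 of the OOA mean. No library overlapped between the arms in either medium. The libraries of OA serve in the oligomycin and in the doxycycline comparison, so these changes are not independent of each other.

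Of the 7 members, Sesn2 and Deptor were the 2 called in Dox_BSA against BSA, both higher, where 2.18% of all genes were called, 1.11% higher and 1.07% lower. That share is 281 genes, which became 80 with these groups fitted alone, 179 without BSA replicate 3, 177 without BSA replicate 4 and 173 without Dox_BSA replicate 2. Deptor went from 33.9, 32.5, 31.5 and 34.6 FPKM to 38.5, 36.3, 37.5 and 37.3 FPKM (0.17 ± 0.04, adjusted p = 0.00987), without overlap. That call was lost when BSA replicate 3 was left out (0.15, adjusted p = 0.0507). It was also lost when these 2 groups were fitted alone (adjusted p = 0.147). The remaining members did not pass. Eif4ebp2 was lower by a log2 difference of -0.13 ± 0.04 (adjusted p = 0.0649), with libraries of 24.4, 25.3, 24.7 and 24.8 FPKM against 27.6, 27.5, 26.7 and 27.0 FPKM that did not overlap. Eif4ebp1 differed by 0.20 ± 0.09 (adjusted p = 0.30), Sesn1 by 0.08 ± 0.06 (adjusted p = 0.637) and Ddit4 by 0.06 ± 0.10 (adjusted p = 0.854).

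In oleic acid, 1 member rose and 3 fell with doxycycline, where 11.3% of all genes were called, 4.29% higher and 7.01% lower. These 1458 genes became 935 without a filter on low values and 963 without OA replicate 2. The split of all calls in Dox_OA against OA was 553 higher and 905 lower, and 716 higher and 596 lower when each library was rescaled to a fixed sum. Eif4ebp1 fell by 0.40 ± 0.09 (adjusted p = 0.00426), and no Dox_OA library reached the lowest OA library. Eif4ebp2 fell by 0.17 ± 0.04 (adjusted p = 0.00401) and Deptor rose by 0.26 ± 0.04 (adjusted p = 4.3e-05), both without overlap. Sesn1, Sesn3 and Ddit4 did not pass, with log2 differences of 0.08, 0.05 and -0.11.

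With oligomycin all 7 members differed between the arms, where 45.7% of all genes did, 22.0% higher and 23.7% lower. These are 2843 and 3060 genes, and 3324 and 2544 after rescaling to a fixed sum. Eif4ebp1 fell by 1.09 ± 0.09 (adjusted p = 5.7e-10) and Ddit4 by 1.00 ± 0.10 (adjusted p = 2.6e-08), to 0.465 and 0.487 of the OOA means. Sesn1 rose by 0.62 ± 0.06 (adjusted p = 1.99e-08), from OOA libraries all under 10 FPKM to 14.1, 15.6, 13.8 and 14.9 FPKM in Dox_OOA, within the range of the BSA libraries from 13.4 to 16.0 FPKM. Deptor rose by 0.52 ± 0.04 (adjusted p = 4.27e-11). Eif4ebp2 rose by 0.17 ± 0.04 (adjusted p = 0.00039) and Sesn3 by 0.16 ± 0.05 (adjusted p = 0.0145), and both stayed below their BSA means of 27.2 and 10.8 FPKM, at 17.8 ± 0.58 and 9.34 ± 0.20 FPKM. For each of these genes the OOA and Dox_OOA libraries were apart. The share of all genes whose libraries were apart was not counted, here or in the other comparisons.

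**Figure D3:**
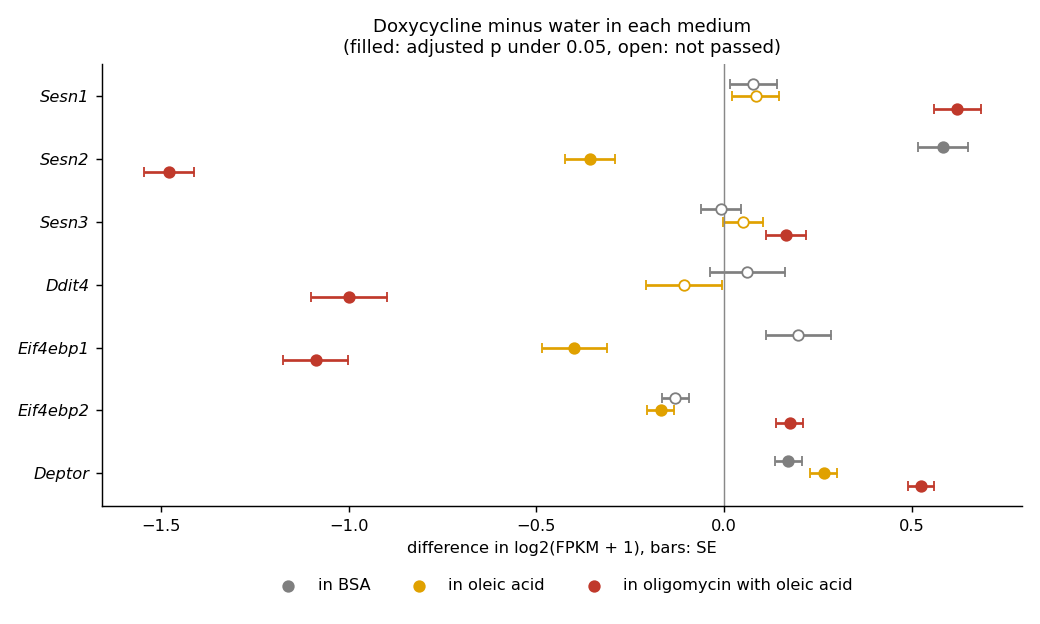
Doxycycline minus water for the 7 tested genes in BSA (grey), oleic acid (yellow) and oligomycin with oleic acid (red). The horizontal axis is the difference in log2(FPKM + 1), bars are standard errors, and filled points passed an adjusted p of 0.05. Sesn2 lies right of 0 in BSA, at 0.58, and left of 0 in the other media, while Deptor lies right of 0 in all 3.

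Oleic acid alone had small effects on the members in water. In OA against BSA 2 of the 7 rose and 2 fell, where 8.29% of all genes were called, 4.67% higher and 3.62% lower. All calls in this comparison split into 603 higher and 467 lower, and into 420 higher and 670 lower after rescaling to a fixed sum. Deptor fell by 0.23 ± 0.04 (adjusted p = 0.000154), with all OA libraries below all BSA libraries. Sesn3 was at 11.3, 10.1, 10.2 and 11.6 FPKM in BSA and at 9.30, 9.48, 8.78 and 9.05 FPKM in OA, and fell by 0.21 ± 0.05 (adjusted p = 0.0115). The groups did not overlap, but the call was lost without BSA replicate 4 (adjusted p = 0.0568). Sesn2 rose by 0.26 ± 0.07 (adjusted p = 0.0171), with 1 OA library among the BSA values. That call was lost without BSA replicate 3 (adjusted p = 0.0655), BSA replicate 4 (0.0767) or OA replicate 3 (0.0831), with these groups fitted alone (0.113) and with limma-voom on recovered reads (0.0600). Eif4ebp1 rose by 0.29 ± 0.09 (adjusted p = 0.0364), from 26.3, 35.3, 28.7 and 28.0 FPKM, with BSA replicate 2 inside the OA range. Leaving out BSA replicate 1, 3 or 4 or OA replicate 1, 2 or 3 ended this call, with adjusted p from 0.0906 to 0.133. So did no filter (0.0973), a fixed sum (0.0585) and these groups fitted alone (0.136). Sesn1 did not pass, with a difference of -0.18 ± 0.06 (adjusted p = 0.0917), or -0.21 after rescaling to a fixed sum (adjusted p = 0.0257). Ddit4 and Eif4ebp2 differed by 0.06 ± 0.10 and 0.01 ± 0.04.

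In the doxycycline arm oleic acid lowered 3 of the 7 members and raised 0, where 6.71% of all genes were called, 3.39% higher and 3.32% lower. Sesn2 fell by 0.68 ± 0.07 (adjusted p = 2.01e-07), to 0.575 of its Dox_BSA mean, and the libraries were apart. Eif4ebp1 fell by 0.30 ± 0.09 (adjusted p = 0.0353), from 37.4, 35.6, 29.7 and 33.3 FPKM in Dox_BSA to no more than 28.7 FPKM in Dox_OA. Deptor fell by 0.13 ± 0.04 (adjusted p = 0.0221). Over all alternative fits the log2 change ran from -0.36 to -0.26 for Eif4ebp1 and from -0.15 to -0.12 for Deptor. Both calls were near the threshold. That of Eif4ebp1 was lost without Dox_BSA replicate 1, 2 or 4 or Dox_OA replicate 1, 2 or 4 (adjusted p from 0.0630 to 0.116), and that of Deptor without Dox_BSA replicate 1 or Dox_OA replicate 2 or 4 (adjusted p from 0.0606 to 0.0717). The call of Eif4ebp1 was also lost without a filter (adjusted p = 0.0950) and that of Deptor with these groups fitted alone (adjusted p = 0.0894).

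The test of the difference in oleic acid response between the arms passed for Sesn2 (-0.94 ± 0.10, adjusted p = 1.25e-06) and Eif4ebp1 (-0.60 ± 0.12, adjusted p = 0.0164). Of all genes 0.635% passed, 0.093% with a positive and 0.542% with a negative difference, which is 12 and 70 genes, or 28 and 68 with limma-voom on recovered reads. Only 0.868% of genes had a larger difference than Sesn2, and 2.52% a larger one than Eif4ebp1. Both genes were higher in OA than in BSA with water and lower in Dox_OA than in Dox_BSA. The call of Eif4ebp1 was lost without a filter on low values (adjusted p = 0.0593) and with the 4 groups fitted alone (adjusted p = 0.0632). Deptor fell in both arms and its difference of 0.09 ± 0.05 did not pass (adjusted p = 0.620).

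The order of the group means differed among the sestrins. Sesn2 ran from OOA (49.4 ± 2.07 FPKM) through Dox_OOA (17.1 ± 0.32) and Dox_BSA (8.0 ± 0.59) to OA (6.19 ± 0.69), BSA (5.02 ± 0.53) and Dox_OA (4.60 ± 0.32), and neighbours among the last 3 overlapped. For Sesn1 only OOA (9.14 ± 0.50 FPKM) stood apart, below 5 groups with means from 12.8 to 15.4 FPKM whose neighbours overlapped. Sesn3 spanned only 8.23 to 10.8 FPKM between its lowest and highest group means, and the sole gap between neighbours lay below BSA and Dox_BSA.

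Ddit4 and Eif4ebp1 shared their first 2 places. Ddit4 averaged 42.9 ± 4.71 FPKM in OOA and 20.9 ± 1.46 in Dox_OOA, and the remaining 4 groups, from 14.5 to 15.7 FPKM, overlapped with their neighbours. Eif4ebp1 averaged 93.0 ± 6.53 FPKM in OOA and 43.3 ± 3.28 in Dox_OOA, above 4 groups from 27.3 to 36.4 FPKM with overlapping neighbours. Eif4ebp2 had its lowest means in these same groups, 15.7 ± 0.98 FPKM in OOA and 17.8 ± 0.58 in Dox_OOA, without overlap. Deptor ran from Dox_OOA (44.6 ± 1.65 FPKM) and Dox_BSA (37.4 ± 0.90) through Dox_OA, BSA and OOA, whose neighbours overlapped, to OA (28.1 ± 0.62).

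Because FPKM is per length, the paralogues can be added within a library, and these sums carry no test. Each gene has a single annotated length, so sums, shares and ratios between genes depend on it and do not count molecules. In BSA the 3 sestrin transcripts together came to 30.4 ± 1.80 FPKM (SD, n = 4). The sum was 28.1 ± 1.5 FPKM in OA and 66.7 ± 1.46 FPKM in OOA. Sesn2 made up 16.5% ± 1.52 of that sum in BSA, 22.0% ± 2.34 in OA and 74.0% ± 1.69 in OOA. The rise of the sum in OOA was thus carried by the sestrin that was least abundant in BSA, while the other two fell. In the doxycycline arm the sum was 34.1 ± 1.35, 27.7 ± 0.37 and 41.0 ± 1.10 FPKM in the same order of media, and the Sesn2 share was 23.4%, 16.6% and 41.7%.

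Eif4ebp1 and Eif4ebp2 together came to 56.8 ± 4.06 FPKM in BSA, 63.9 ± 4.27 in OA and 109 ± 6.45 in OOA, and with doxycycline to 58.8 ± 3.34, 51.6 ± 1.15 and 61.1 ± 3.25 FPKM. Eif4ebp1 held 51.9% of the sum in BSA, 56.9% in OA and 85.5% in OOA, and 57.7%, 52.8% and 70.8% with doxycycline. Set against their partner Eif4e, the ratio of summed 4E-BP FPKM to Eif4e FPKM was 2.61 ± 0.26 in OA and 4.72 ± 0.47 in OOA. In Dox_OA and Dox_OOA the ratio was 2.31 ± 0.09 and 3.21 ± 0.32. The OOA libraries, from 4.13 to 5.14, lay above those of the other 5 groups, whose highest was 3.64 in Dox_OOA. Eif4e itself did not pass in OOA against OA (-0.08 ± 0.04, adjusted p = 0.121). In Dox_OOA it was lower than in OOA by -0.27 ± 0.04 (adjusted p = 3.15e-05).

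**Figure D4:**
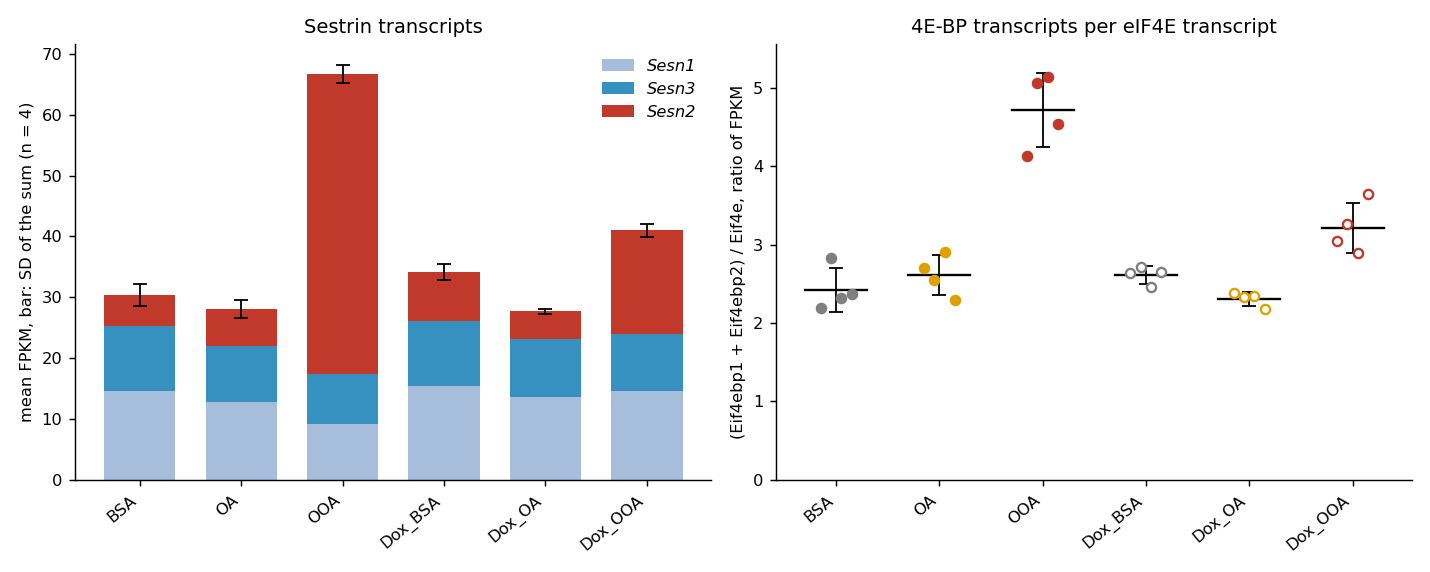
Left, mean FPKM of Sesn1, Sesn3 and Sesn2 stacked for each of the 6 groups from 0, with the SD of the sum over 4 libraries. Right, the ratio of summed Eif4ebp1 and Eif4ebp2 FPKM to Eif4e FPKM, with 1 point per library and the mean and SD. Sesn2 fills 74.0% of the OOA bar and 16.5% of the BSA bar, and the OOA ratio averages 4.72 against 2.61 in OA.

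Genes whose pattern was most like that of a member were sought for the 3 members whose group means spanned at least 1 on the log2 scale. Likeness was the root mean square difference of centred log2(FPKM + 1) over the 24 libraries. Closest to Sesn2 were Cyb5r1 (0.15), the glycine transporter gene Slc6a9 (0.16) and Ddit3, which encodes the stress factor CHOP (0.17). Ddit4 was closest to Slc24a3 (0.14), the mitochondrial chaperone gene Dnaja3 (0.15) and the haem synthesis gene Cpox (0.15). Eif4ebp1 was closest to Atf4 itself (0.13), the asparaginyl-tRNA synthetase gene Nars (0.14) and the mitochondrial serine hydroxymethyltransferase gene Shmt2 (0.14). Atf4 rose by 1.56 ± 0.06 in OOA against OA, where Eif4ebp1 rose by 1.33, and it was lower by -1.23 ± 0.06 in Dox_OOA against OOA, where Eif4ebp1 fell by 1.09. Atf4 was picked for its likeness over these same libraries, so closeness in single comparisons follows from that choice.

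Transcripts of the mTORC1 machinery were read as a list. In OOA against OA 28.5% of all genes were higher and 28.4% lower. Of 9 tested subunits and assembly factors of mTORC1 and mTORC2, 1 rose and 1 fell in OOA against OA, the cochaperone genes Telo2 (0.31 ± 0.08) and Tti1 (-0.28 ± 0.08). Mtor differed by 0.09 ± 0.05 (adjusted p = 0.154), Rptor by -0.02 ± 0.04 (0.657) and Mlst8 by 0.06 ± 0.07 (0.493). The list's median was 0.06, beside 0.12 for the 7 members and 0.01 for all genes. In Dox_OOA against OOA, where 23.7% of all genes were lower and 22.0% higher, 5 of the 9 fell (4 with a fixed sum or limma-voom) and 0 rose. Among them were the inhibitory subunit gene Akt1s1, which encodes PRAS40 (-0.42 ± 0.07), and Rptor (-0.16 ± 0.04).

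The counts of the upstream and downstream lists in OOA against OA stand beside 28.5% of all genes higher and 28.4% lower. Upstream of mTORC1, the list of GATOR, KICSTOR and amino acid sensor genes, whose products meet the sestrins, had 6 of 15 higher and 4 lower in OOA against OA (median 0.14). Castor2, of the arginine-sensing CASTOR family, fell by 1.01 ± 0.08, and the KICSTOR gene Kics2 and the GATOR1 gene Nprl3 rose by 0.69 ± 0.10 and 0.42 ± 0.06. Of 11 Rag, Ragulator and folliculin genes 2 rose and 2 fell, or 4 with a fixed sum (median 0.03), with Lamtor1, a lysosomal anchor, at -0.47 ± 0.07. Of the 5 genes of the TSC complex and Rheb 3 rose and 0 fell (median 0.32), namely Rheb (0.37 ± 0.05), Rhebl1 (0.32 ± 0.11) and Tsc2 (0.32 ± 0.06), whose product is the inhibitor through which REDD1 acts. Of 10 AMPK genes 4 rose and 3 fell (median 0.01), Prkaa2 at 0.51 ± 0.08 and Prkag2 at -0.63 ± 0.08. Of 13 insulin and AKT genes 4 rose and 5 fell (median 0.04). Irs1, the insulin receptor substrate, fell by 1.56 ± 0.07 and the receptor gene Insr rose by 0.60 ± 0.06. With doxycycline Irs1 was higher in Dox_OOA than in OOA by 1.32 ± 0.07.

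Downstream, 8 of 19 effector and cap-binding genes rose and 4 fell in OOA against OA (median 0.11). The helicase gene Eif4a2 rose by 0.80 ± 0.05 and the elongation factor kinase gene Eef2k by 0.60 ± 0.05, while the scaffold gene Eif4g1 fell by 0.47 ± 0.02. The kinase gene Rps6kb1 fell by 0.22 ± 0.06. In Dox_OOA against OOA 1 of the 19 rose and 9 fell, beside 22.0% and 23.7% of all genes, including Larp1, a repressor of ribosomal protein mRNAs (-0.47 ± 0.04), and Eef2k (-0.42 ± 0.05).

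Lists of known targets were counted for the regulators of these genes. The lists were chosen with earlier results of these data known, so the counts are descriptions, and the part of each regulator was not tested. Of all genes, 28.5% were higher and 28.4% lower in OOA against OA, and 22.0% and 23.7% in Dox_OOA against OOA. The ATF4 list held 26 genes, Atf4 itself included and the members left out. Of these, 26 rose in OOA against OA with a median of 2.07, and 26 fell in Dox_OOA against OOA with a median of -1.36. In Dox_BSA against BSA 14 rose and 0 fell, beside 1.11% and 1.07% of all genes, and in Dox_OA against OA 0 rose and 16 fell, beside 4.29% and 7.01%. Trib3, a pseudokinase gene, rose by 4.95 ± 0.11 in OOA against OA and by 1.57 ± 0.11 in Dox_BSA against BSA. Of 19 p53 targets 18 rose in OOA against OA (median 0.80), Eda2r by 2.59 ± 0.08 and Cdkn1a by 1.17 ± 0.06, and 1 rose and 17 fell in Dox_OOA against OOA. Sesn1, a known p53 target, and Sesn3 fell in the first of these and rose in the second. Sesn2 rose in the first and fell in the second. In Dox_BSA against BSA, where Sesn2 rose, 1 of the 19 p53 targets rose, Rrm2b at 0.24 ± 0.06 (adjusted p = 0.0477).

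The other lists each had calls in both directions in OOA against OA, where 28.5% of all genes were higher and 28.4% lower. They also hold the genes of the factors themselves. Of 19 FOXO targets 12 rose and 2 fell (median 0.23), with the muscle transcription factor gene Klf15 at 1.92 ± 0.15. Of 14 glucocorticoid receptor targets 5 rose and 5 fell (median 0.01), with Tsc22d3 at 1.12 ± 0.08 and Fkbp5 at -0.81 ± 0.05. Of 19 targets of the hypoxia factor HIF, of which Ddit4 is also known as one, 5 rose and 11 fell (median -0.39), with Vegfa at 1.58 ± 0.07 and the lactate dehydrogenase gene Ldha at -1.08 ± 0.05. Across the 12 lists, 5 genes belong to more than 1. Rescaling to a fixed sum or fitting limma-voom to recovered reads left the counts of the ATF4 list in OOA against OA and in Dox_OOA against OOA as given. The 14 higher in Dox_BSA against BSA became 16 with a fixed sum. In Dox_OA against OA the 16 lower became 17 with limma-voom. For p53 targets, the 1 higher in Dox_BSA against BSA became 2 with limma-voom. The 17 lower in Dox_OOA against OOA became 16 with a fixed sum.

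**Figure D5:**
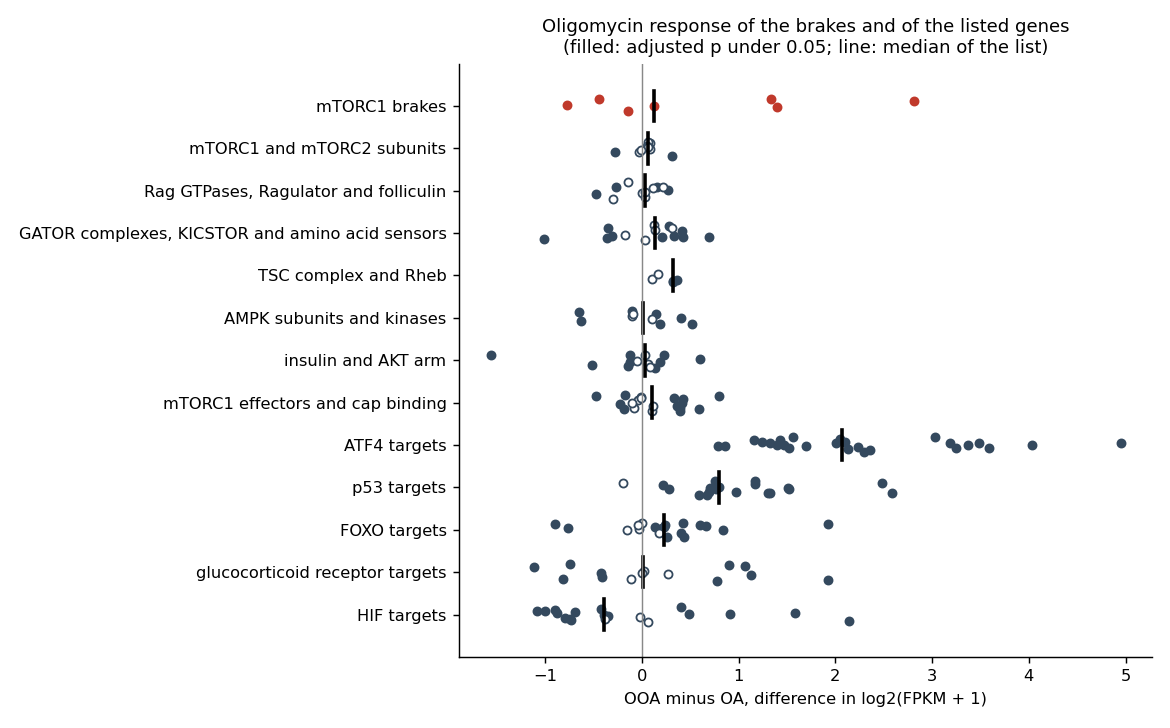
Change of each tested gene in OOA against OA (horizontal axis, difference in log2(FPKM + 1)) for the 7 members in red and for 12 lists of pathway genes and known targets in dark blue. Filled points passed an adjusted p of 0.05 and each line is the median of a list. The members spread from -0.77 to 2.81 with a median of 0.12. The lists of mTORC1 machinery centre within 0.32 of 0, with single genes further out, such as Irs1 at -1.56. The ATF4 list lies right of 0 with a median of 2.07.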

How the data were processed

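RNA of 24 libraries was sequenced, in 6 groups of 4 taken from the sample titles. Per the file headers, the authors deposited FPKM for 56748 genes with Ensembl identifiers. Builds GRCm39 and mm39 are named in the submitters' processing notes, as are HTSeq, HISAT2, STAR-Fusion and STAR, without version or role. Multiplied by gene length, 100% of the deposited FPKM values were within 0.01 of a whole number of reads, so counts were recovered for the alternatives. Every column of values was matched to a sample.

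Log2(FPKM + 1) of the deposited values was tested with limma 3.58.1 (R 4.3.3, trend and robust estimation), a mean per group, 18 residual degrees of freedom and genes with at least 1 FPKM in at least 4 libraries. This left 12904 genes and 7 of the 8 members. There were 9 contrasts, 7 differences and 2 interactions, with two-sided p-values adjusted by Benjamini-Hochberg over all genes tested at 0.05. Ddit4l was tested with the two-sided exact permutation test over 70 assignments, adjusted over 7 comparisons. The fit was tested on simulated data. Alternatives were a pseudocount of 0.1, no filter, rescaling to a fixed sum, the compared groups alone, a replicate block, limma-voom on recovered reads with scaling by a trimmed mean of ratios, and leaving out each library.

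Named genes are the members, the genes of 12 pathway lists with the smallest p (up to 4 in OOA against OA, up to 2 elsewhere), a set of key regulators, and the 3 protein-coding genes most like each member spanning at least 1 on the log2 scale. Members and lists were chosen with earlier results of these data known. Of the 184 list genes 174 were tested, 4 found under an older symbol. Promoters are from RefSeq (GRCm38.p6), another build than that of the files.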

Additional observations from a re-analysis of the deposited data

Results flagged for a closer look

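The response to oligomycin differed between the doxycycline and the water arm for 6 members, by the interaction test. The differences, doxycycline minus water on the log2(FPKM + 1) scale, were -1.12 for Sesn2, -0.89 for Ddit4, -0.69 for Eif4ebp1, 0.34 for Eif4ebp2, 0.54 for Sesn1 and 0.26 for Deptor. The response to oleic acid differed between the arms for Sesn2 (-0.94) and Eif4ebp1 (-0.60).

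Of 66 groups of 4 libraries examined, 2 held a library far from the other 3 by Dixon's test at the 95% critical value. Chance alone gives about 1 such group in 20. Ddit4l was at 0.630 FPKM in OOA replicate 1, above the other OOA libraries. The Sesn2 share of the sestrin sum was 21.9% in Dox_BSA replicate 3, below the other Dox_BSA libraries.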

How the results depend on the processing

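Of 63 results of single members 47 kept direction and side of the threshold under every alternative run, and 16 changed under at least 1. Large responses, those of Sesn2, Ddit4, Eif4ebp1 and Eif4ebp2 to oligomycin in both arms, were among the stable ones. Ddit4l, with 21 to 91 reads per library, did not enter the test across genes.

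Members called in OA against BSA were 4, and 2 with the compared groups alone, or 1 to 4 leaving out a library. In Dox_BSA against BSA 281 genes and 2 members were called, 80 and 1 with the compared groups alone, and 173 to 302 genes and 1 to 2 members leaving out a library. In Dox_OA against OA the 1458 genes became 935 without a filter and 963 to 1250 leaving out a library. In Dox_OA against Dox_BSA 866 genes became 512 with the compared groups alone, and 3 members became 1 to 3 leaving out a library. The 2 members of the oleic acid interaction became 1 without a filter and 1 with the compared groups alone. The cause was not tested, except that fewer libraries enter the fit of the compared groups.

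Signs turned only for results that did not pass. Eif4ebp2 in OA against BSA was -0.025 with a fixed sum. Leaving out a library, Ddit4 ranged from -0.029 to 0.150 in OA against BSA and from -0.023 to 0.156 in Dox_BSA against BSA, Sesn3 from -0.040 to 0.025 in Dox_BSA against BSA and from -0.069 to 0.0036 in Dox_OOA against Dox_OA, and Sesn1 from -0.064 to 0.043 in the oleic acid interaction. Sesn3 in Dox_OA against Dox_BSA passed with limma-voom (adjusted p = 0.0436). The planned edgeR model on recovered reads is not reported, since the deposited unit is FPKM. The sestrin sum in OOA was 65.1 FPKM with a fixed sum.

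Replicate numbers were not used to pair the libraries. Correlations of same-numbered deviations ran from -0.04 to 0.11, and in no comparison were all above 0.1. Even so, 18 of 24 libraries correlated best with their own number, so libraries of a number shared a small part of their spread. With the number as a replicate block 1249, 7517, 380, 1736, 6092, 1020 and 4560 genes were called in the 7 differences, in the order OA against BSA, OOA against OA, doxycycline in BSA, in OA and in OOA, Dox_OA against Dox_BSA and Dox_OOA against Dox_OA, with 4105 and 99 for the interactions. The block gave more calls than the fit without it in every comparison, and it changed no call of a member.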
